A study of Mus musculus with 8 samples.

Results

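The 9 genes described here carry the Notch signal into the nucleus, tune it or end it, and were examined in ATAC-seq peak lists of mouse DN3 thymocytes. They were Rbpj and its coactivators Maml1, Maml2 and Maml3, the fringe genes Lfng, Mfng and Rfng, the receptor protease Adam10 and the ubiquitin-ligase gene Fbxw7. Members were chosen by name, as 9 of 21887 protein-coding genes, and every called peak overlapping a gene body or the 25 kb on either side was taken as belonging to that gene. This gave 1066 of 565672 peaks, which merged into 315 of 180321 regions.

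ATAC-seq marks open chromatin by letting a transposase insert adapters into it. DN3 cells are the double-negative stage of T-cell development at which pre-T-cell receptor signalling is tested. All cells were of the C57BL/6 strain, and the groups differed at N-Me, the Notch-Myc enhancer, a distal element that controls Myc: 2 libraries were N-Me wild type (wild type 1 and 2) and 2 were homozygous for mutations in GATA sites 1 and 2 of the enhancer (mutant 1 and 2). The labels name no age, sort gate or animal for any library, so any test measures only the spread between these libraries, which may be technical. None of the 9 gene windows is the mutated element. The 4 leukaemia samples of the series were not analysed here.

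Notch receptors are cleaved after a ligand on a neighbouring cell pulls on them. ADAM10 makes the outer cut, gamma-secretase then frees the intracellular domain, and this domain joins the DNA-binding protein RBPJ and a Mastermind-like coactivator on target genes. Fringe enzymes extend the sugar on the receptor's extracellular repeats and thereby change which ligands it answers; LFNG is known for its role in holding early thymocytes to the T-cell fate. FBXW7 recognises phosphorylated intracellular Notch1, and also MYC, and sends them for degradation.

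The promoters of the members with the strongest and the weakest start peak in each role are printed here, because start peaks of these genes ranged from among the weakest to the middle of all genes. Those of Rbpj and Maml2 and of a downstream start of Fbxw7 were added after their values were seen. Each sequence is the 250 bases before the annotated transcription start, read 5′ to 3′ on the gene's strand, from RefSeq for GRCm38.p6. Capitals mark matches on either strand to the RBPJ core TGGGAA. They also mark the RUNX core TGTGGT and the ETS core CCGGAA. The GATA hexamers AGATAA and TGATAA would be marked likewise.
Maml1 (chr11:50292337-50292586, minus strand): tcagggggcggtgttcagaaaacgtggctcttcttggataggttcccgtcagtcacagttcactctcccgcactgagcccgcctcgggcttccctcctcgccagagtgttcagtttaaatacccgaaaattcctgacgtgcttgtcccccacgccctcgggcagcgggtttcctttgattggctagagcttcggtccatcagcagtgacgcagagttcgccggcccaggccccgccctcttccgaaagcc
Maml3 (chr3:52105007-52105256, minus strand): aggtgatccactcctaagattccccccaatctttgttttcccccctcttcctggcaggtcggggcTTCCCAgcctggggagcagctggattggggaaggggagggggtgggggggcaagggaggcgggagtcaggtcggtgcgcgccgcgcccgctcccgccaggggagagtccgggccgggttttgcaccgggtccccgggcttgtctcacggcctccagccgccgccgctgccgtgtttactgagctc
Rbpj (chr5:53590096-53590345, plus strand): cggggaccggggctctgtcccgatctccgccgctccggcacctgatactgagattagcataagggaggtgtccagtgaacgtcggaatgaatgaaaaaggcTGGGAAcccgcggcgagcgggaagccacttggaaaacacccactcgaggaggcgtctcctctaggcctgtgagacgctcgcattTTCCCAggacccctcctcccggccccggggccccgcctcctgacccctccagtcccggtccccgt
Maml2 (chr9:13297708-13297957, plus strand): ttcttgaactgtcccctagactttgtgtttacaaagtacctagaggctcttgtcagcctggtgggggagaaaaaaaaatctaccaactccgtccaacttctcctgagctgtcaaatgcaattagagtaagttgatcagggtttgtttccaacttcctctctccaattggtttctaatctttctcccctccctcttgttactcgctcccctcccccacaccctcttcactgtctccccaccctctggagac
Rfng (chr11:120784205-120784454, minus strand): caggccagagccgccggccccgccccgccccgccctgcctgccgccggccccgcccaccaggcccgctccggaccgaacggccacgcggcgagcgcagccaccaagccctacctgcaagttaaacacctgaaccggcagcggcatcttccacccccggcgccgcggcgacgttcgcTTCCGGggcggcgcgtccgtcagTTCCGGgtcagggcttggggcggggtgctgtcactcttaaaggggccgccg
Lfng (chr5:140607091-140607340, plus strand): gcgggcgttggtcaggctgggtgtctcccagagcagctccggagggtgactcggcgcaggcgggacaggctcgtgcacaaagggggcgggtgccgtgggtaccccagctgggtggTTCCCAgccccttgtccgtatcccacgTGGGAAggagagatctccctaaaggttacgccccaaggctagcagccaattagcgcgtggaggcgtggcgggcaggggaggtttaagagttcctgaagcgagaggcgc
Adam10 (chr9:70678732-70678981, plus strand): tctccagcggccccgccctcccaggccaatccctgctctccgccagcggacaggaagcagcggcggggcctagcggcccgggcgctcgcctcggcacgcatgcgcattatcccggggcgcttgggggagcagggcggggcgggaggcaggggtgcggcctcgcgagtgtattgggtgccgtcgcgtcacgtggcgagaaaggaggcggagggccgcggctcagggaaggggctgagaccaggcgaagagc
Fbxw7, main start (chr3:84815327-84815576, plus strand): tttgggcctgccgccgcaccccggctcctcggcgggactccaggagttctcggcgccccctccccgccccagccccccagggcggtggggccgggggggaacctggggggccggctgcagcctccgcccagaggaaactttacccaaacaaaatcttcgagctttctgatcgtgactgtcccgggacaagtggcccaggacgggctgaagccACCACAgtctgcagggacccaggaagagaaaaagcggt
Fbxw7, downstream start (chr3:84863895-84864144, plus strand): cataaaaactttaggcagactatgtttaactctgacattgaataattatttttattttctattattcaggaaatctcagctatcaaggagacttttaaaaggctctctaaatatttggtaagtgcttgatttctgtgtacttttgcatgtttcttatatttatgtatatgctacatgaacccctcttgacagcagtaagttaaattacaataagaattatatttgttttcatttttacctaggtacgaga

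RefSeq promoter windows of 300 bases, 250 before and 50 after a start, were found for 12 starts of 8 members, and motifs were searched in the whole window. The core TGGGAA, which RBPJ shares with Ikaros-family proteins, stood in 5 of the 12 windows and in 3 of the 8 main starts, against 24.5% of all 21263 promoter windows and 22.2% of the 12418 at starts covered in all 4 libraries. The windows of the 2 Rbpj starts overlap and share a match. In the Rbpj promoter it lay 149 and 65 bases before the start, in that of Lfng 135 and 108 bases before it, and in that of Maml3 185 bases before it. Neither GATA hexamer, which share the letters GATAA, stood in any of the 12 windows; AGATAA stood in 9.65% and TGATAA in 7.6% of all windows, and in 5.44% and 3.37% of those at covered starts. CCGGAA was found in the Rfng window, 74 and 51 bases before the start, against 18.7% of all windows and 28.3% of those at covered starts. TGTGGT was found 38 bases before the main start of Fbxw7 and in the window of its start at chr3:84952211, against 15% of all windows and 11.8% of those at covered starts. GGGCGG, a core bound by SP and KLF factors and not capitalised, stood in 7 of the 12 windows, 46.2% of all and 67.8% of those at covered starts. These letters are descriptions of sequence, and no binding was measured.

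The Maml2 starts and the downstream Fbxw7 starts had fewer CpG pairs than the other starts. The main Fbxw7 window had 69% G and C and 24 CpG pairs, and the windows of its starts 48568 and 136634 bases further on had 29.7% with 1 CpG and 46% with 6 CpG. The Maml2 start had 48% G and C and only 2 CpG pairs, the 11.4th percentile of all windows, and the downstream Maml2 start had 53.7% and 7. By contrast, Rfng had 77% and 44 CpG pairs. Across the genome, the 12418 starts covered by a peak in all 4 libraries had a median of 62% G and C and 22 CpG pairs, and the 7781 covered in none had 47% and 3.

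The deposited lists differed in how finely the peaks had been cut, and this touches every width, number and shared-peak count that follows. On assembled nuclear chromosomes there were 169255 and 156372 peaks in wild type and 121022 and 119023 in mutant, yet the covered length was 72.1, 70.8, 72.3 and 69.3 Mb. The shortest peak was 64, 65, 73 and 87 bp and the smallest gap between peaks 257, 261, 293 and 349 bp, in the same order. Read depth is not given in the sources used here, so the limit of detection in each list is unknown. All 10 DN3 markers checked (such as Ptcra, Il2ra, Rag1 and Bcl11b) had a peak within 1 kb of a start or gene end in every list. Of 4 markers each, B-cell genes had one in 3, 4, 3 and 3 cases, myeloid genes in 4, 4, 2 and 2, erythroid genes in 2 in each list, and thymic stroma genes in 2, 1, 1 and 1. The annotated start itself was covered in all 4 lists for 9 of the 10 DN3 markers, and that of Bcl11b in none. Among other genes with an annotated start, this held for 0 of 3 B-cell, 1 of 2 myeloid, 0 of 3 erythroid and 1 of 4 thymic stroma genes. The covered share of the window, described for the members further on, was higher in both mutant libraries for 9 of the 10 DN3 markers and lower for 1. Higher and lower shares numbered 0 and 2 of the 4 B-cell genes and 1 and 2 of the 4 myeloid genes. They numbered 0 and 0 of the 4 erythroid genes and 1 and 2 of the 4 thymic stroma genes. Over all protein-coding genes it was higher for 23.6% and lower for 29.6%. The part of other cells in the results was not tested.

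All 8 members with an annotated start were open there in all 4 libraries, against 60.8% of 17492 protein-coding genes. The strength of the start peak was read as the fold enrichment over background that the authors' peak caller gave it, a value scaled within each list. Genes were ranked by its mean over the 4 lists, and regions by the lowest of their folds; no difference in fold between genotypes is read from it. Regions on a member's own start had a median width of 1801 bp, and those elsewhere in the gene bodies 386.5 bp. Peaks of unlike width were thus ranked together, and the part of width in the fold was not tested. Adam10 and Maml1 sat at the middle of the 10639 genes with a start covered in all 4 lists, at percentiles 52.2 and 50.4 of mean fold. Maml3 and Lfng were near the bottom, at the 2.84th and 3.80th percentile, and Rbpj and Maml2 at the 13.0th and 14.0th. Rfng and Fbxw7 lay between, at the 32.9th and 35.9th.

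**Figure D1:**
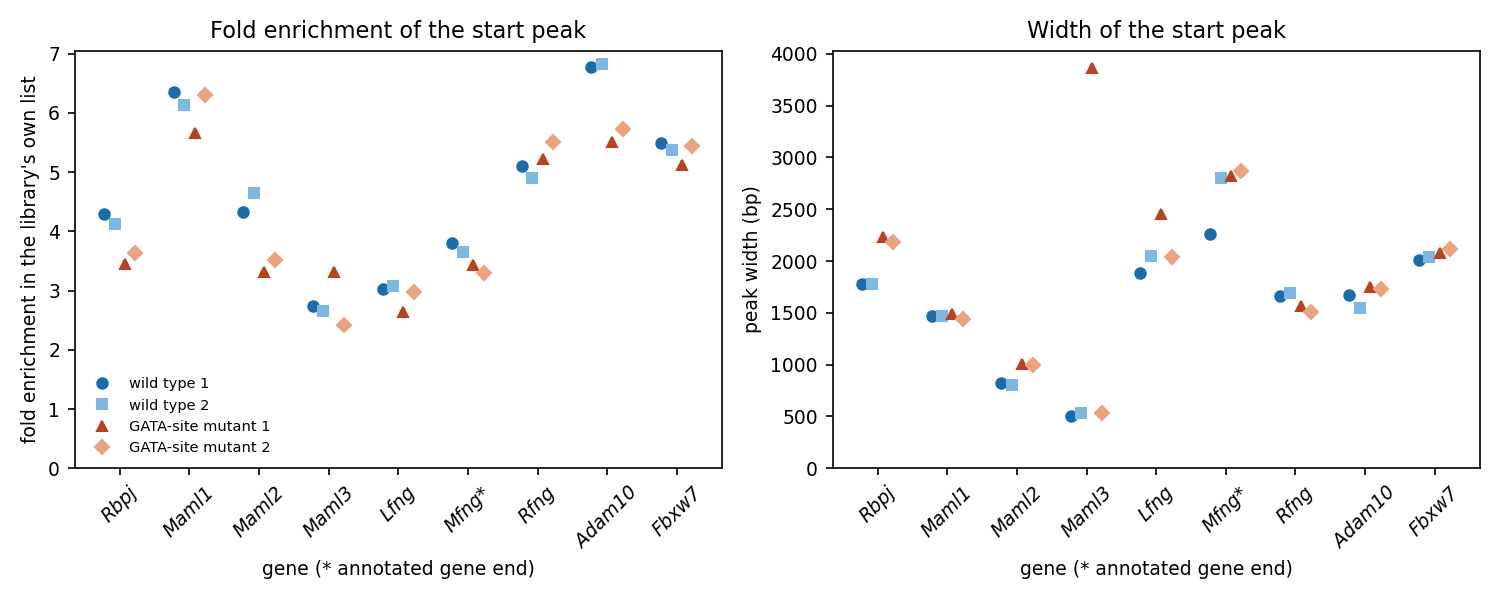
Peaks over the transcription start of 8 genes and over the upper annotated gene end of Mfng, 4 libraries each: fold enrichment in the library's own list (left) and peak width in bp (right). Adam10 and Maml1 have the highest folds and Maml3 and Lfng the lowest, and a single point at 3861 bp, Maml3 in mutant 1, stands apart in width.

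Rbpj encodes the DNA-binding subunit to which all canonical Notch signalling converges. Its start peak (chr5:53590346) had a fold of 4.30 and 4.13 in the wild-type lists and 3.44 and 3.63 in the mutant lists, and was 1778, 1774, 2229 and 2184 bp wide. Both mutant peaks were wider than both wild-type peaks. In the wild-type lists a short separate peak stood beside the start peak; after all lists were brought to the same shortest length and joining gap, the widths were 2243 and 2258 bp against 3017 and 2184 bp, and the groups overlapped. The strongest other region by its lowest fold was chr5:53566056-53567476, centred -23.6 kb from the start but within the annotated gene body, with folds of 6.21, 5.90, 5.84 and 5.82. It was one of 4 regions of the Rbpj window whose fold was above that of the start in every list. Of 22 regions around Rbpj, 14 were called in all 4 libraries, 8 in other combinations and none in one genotype alone.

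Maml1, a coactivator that bridges the Notch-RBPJ complex to histone acetyltransferases, had the strongest start peak of the complex genes. Its folds at chr11:50292336 were 6.36, 6.13, 5.66 and 6.31 and its widths 1467, 1474, 1486 and 1444 bp, and the widths of the genotypes overlapped. No other region of its window had a higher fold in every list. The widest other region, and the strongest by lowest fold, chr11:50236412-50238543, covered the start of Ltc4s, a leukotriene synthase gene, 54.9 kb beyond the Maml1 start; its folds were 5.11, 5.10, 5.57 and 5.48. Inside Maml1 the strongest by lowest fold was chr11:50280028-50281028, at 4.99, 7.21, 5.19 and 5.16. The 23 regions divided as at Rbpj, with 15 in all libraries, 8 in other combinations and none in one genotype alone.

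Maml2, the Mastermind-like gene known from fusions in salivary gland tumours, was open at its start despite the low CpG count of the promoter printed above. Folds at chr9:13297958 were 4.33, 4.64, 3.32 and 3.52, and widths 827, 806, 1010 and 998 bp, so that both mutant peaks were wider than both wild-type peaks. A separate peak covered the annotated beginning of the gene body at chr9:13296561, 591, 579, 587 and 577 bp wide, with folds of 5.60, 5.35, 4.52 and 4.82. The far downstream start at chr9:13662460 was covered in mutant 2 alone, by a 125 bp peak of fold 2.15. The strongest regions by lowest fold lay far from the start. One inside the gene, chr9:13681477-13682167, 383.9 kb downstream of it, had folds of 13.0, 12.7, 8.09 and 8.73. Another, chr9:13716288-13716836, beyond the gene's end, had 11.1, 11.5, 10.2 and 10.2, and its fold ranked at the 98.7th percentile or higher of every list. In all, 14 of 48 shared regions other than that on the main start had a higher fold than it in every list. The peak over the annotated beginning of the gene body is among the 14.

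Maml3, another Mastermind-like coactivator and the longest of the 9 genes, held the most regions, 98, against a median of 10 over protein-coding genes. Its annotated body spans 418 kb, and per 100 kb the 20.9 regions were at the 77.8th percentile. The start peak at chr3:52105006 had low folds of 2.74, 2.66, 3.31 and 2.43. Its width was 503, 532, 3861 and 533 bp: mutant 1 held as a single peak what the other lists held as 2, and the higher of these 2 had folds of 3.95, 3.86 and 3.70 in the other lists. Without mutant 1, the mutant width of 533 bp stood beside 532 bp in wild type 2. A total of 29 of 58 shared regions away from the start had a higher fold than the start peak in every list. The strongest by its lowest fold was chr3:51881827-51882545, 222.8 kb inside the gene, with folds of 9.72, 9.17, 8.48 and 8.36. In single lists others were higher, such as chr3:51759314-51760061, with 11.0 in wild type 1.

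**Figure D2:**
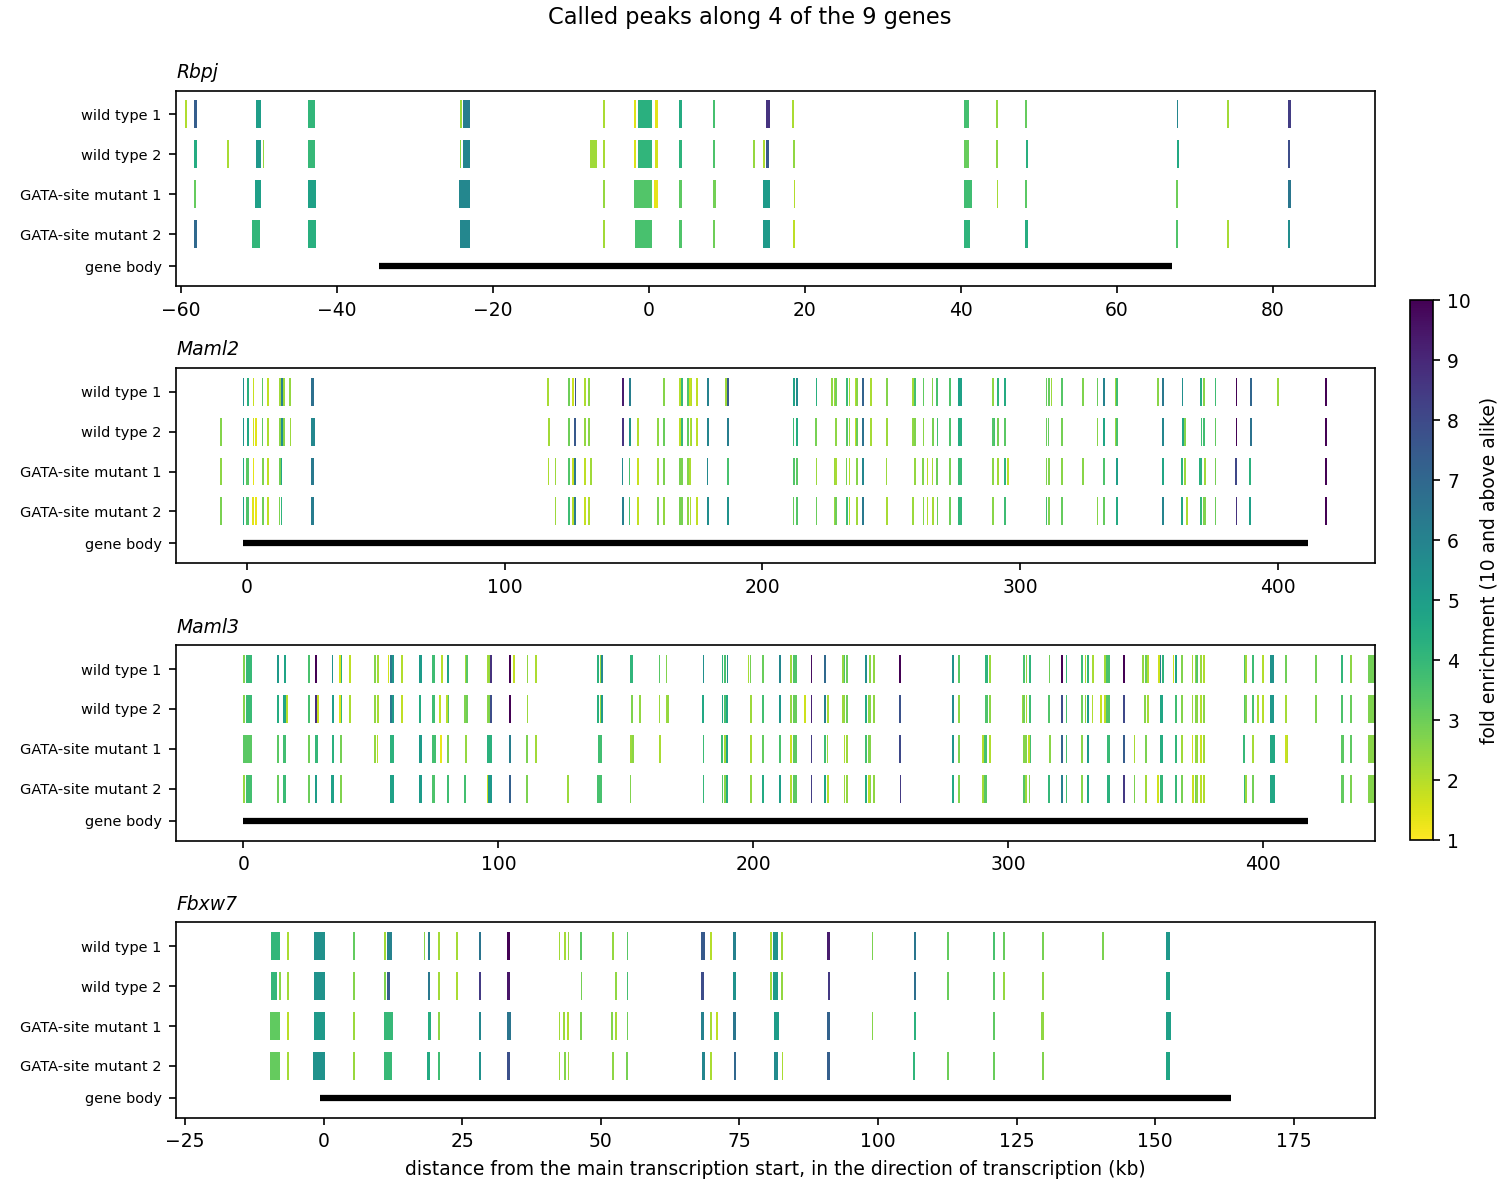
Called peaks along Rbpj, Maml2, Maml3 and Fbxw7 in the 4 libraries, by distance from the main transcription start in kb; colour is fold enrichment in the library's own list, black bars are annotated gene bodies, and short peaks are drawn at a minimum width. Most positions recur in all 4 rows, and the darkest bars lie inside or beyond the genes rather than at the starts.

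The fringe gene Lfng had a wide and weak start peak in a densely open window. Folds at chr5:140607341 were 3.03, 3.08, 2.64 and 2.97 and widths 1881, 2049, 2449 and 2041 bp, with overlap between genotypes. Peaks covered 18.1% and 18.7% of its 58.2 kb window in wild type and 19.6% and 20.4% in mutant, the 99.0th percentile of all genes. The strongest region by lowest fold, chr5:140628900-140629432, with folds of 5.65, 4.33, 4.32 and 4.61, lay in the body of the neighbour Ttyh3, a chloride channel gene. No attribution of such regions to Lfng was possible from peak lists.

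Mfng encodes another fringe. A peak covered the upper end of its annotated body, chr15:78773516, in every library, with folds of 3.80, 3.65, 3.43 and 3.29 and widths of 2260, 2805, 2816 and 2867 bp. The lower end, chr15:78755882, was covered in none. The strongest region by lowest fold lay below the gene, at chr15:78742917-78743450, with folds of 5.92, 5.40, 4.30 and 4.75. A region at chr15:78753073-78753356, called in wild type 1 at a fold of 1.88 and in mutant 1 at 5.34, was missing from replicate 2 of each genotype; it was singled out after its values were seen.

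Rfng, the fringe gene with the shortest body (3.51 kb), shares its start region with Gps1, a COP9 signalosome gene. Folds at chr11:120784204 were 5.11, 4.90, 5.23 and 5.50. Its start peak was 1662, 1694, 1561 and 1504 bp wide, which made it the member whose mutant peaks were both narrower than its wild-type peaks. The strongest region of the window by lowest fold, chr11:120775873-120776613, 7.96 kb beyond the start and between annotated genes, had folds of 9.63, 8.64, 8.53 and 8.79.

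Adam10, the gene of the ligand-dependent receptor protease, had a strong start peak at chr9:70678982, with folds of 6.78, 6.83, 5.50 and 5.72. It was 1673, 1542, 1747 and 1733 bp wide, and both mutant peaks were the wider. None of the 9 other shared regions exceeded the start in every list. Close to it in fold was chr9:70656098-70657751, over the starts of Mindy2 and Gm31872, at 6.84, 6.94, 5.36 and 5.67. That region exceeded the Adam10 start in both wild-type lists. The strongest other regions by lowest fold were chr9:70671300-70672448, centred -7.11 kb from the start, at 6.05, 6.07, 6.22 and 5.71, and, inside the gene, chr9:70760447-70761958, at 5.87, 5.41, 5.30 and 4.88.

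Fbxw7 had a peak at its main start, chr3:84815577, in every library and none in any library at the other 2 annotated starts. Folds were 5.49, 5.37, 5.13 and 5.45 and widths 2014, 2040, 2077 and 2114 bp, and both mutant peaks were the wider. The merged region there also covered the start of another annotated gene, Gm35486. Alternative starts of Fbxw7 give FBXW7 isoforms with different first exons. The strongest other region by its lowest fold, chr3:84906403-84906978, lay 91.1 kb inside the gene, with folds of 9.33, 8.51, 7.21 and 7.29, and 5 of 17 shared regions exceeded the start in every list.

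Start peaks were wider in both mutant than in both wild-type libraries for 5 of 8 members (Rbpj, Maml2, Maml3, Adam10 and Fbxw7) and narrower for Rfng. The same held for 55% and 10.8% of the 10639 protein-coding genes with a start covered in every list, so the members' counts were near the background. For these 6 genes the exact two-sided permutation test gave p = 0.333 each, the smallest that 2 libraries against 2 allow; for Lfng it was 0.667 and for Maml1 1. With the same shortest length and joining gap in every list, 4 members were wider, Rbpj being lost. Maml3 was among the 4 by 533 bp in mutant 2 against 532 bp in wild type 2. The share of all genes with wider start peaks was not computed for this setting.

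Across all windows together, peaks covered 135.1 and 130.8 kb in wild type and 147.2 and 139.8 kb in mutant. The means were 132.9 ± 3.06 kb and 143.5 ± 5.29 kb (SD, n = 2 each; exact two-sided permutation p = 0.333). The mutant libraries were both higher, by a ratio of 1.08, while over the whole genome the ratio was 0.991. The number of peaks went the other way, with 297 and 292 in wild type and 243 and 234 in mutant (294.5 ± 3.54 against 238.5 ± 6.36, SD, n = 2 each; exact permutation p = 0.333). Its ratio was 0.810 here and 0.737 genome-wide. Counting peaks of a fold of 4 or more alone, the covered length was 73.5 and 58.4 kb in wild type and 56.0 and 61.0 kb in mutant, and the groups overlapped.

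By role, the complex genes were covered over 87.5 and 85.1 kb in wild type and 97.5 and 91.7 kb in mutant. Adam10 and Fbxw7 together had 21.0 and 18.4 kb against 23.9 and 22.4 kb. The fringe genes had 26.6 and 27.3 kb against 25.8 and 25.7 kb. Summed by role, complex and turnover genes were thus higher and fringe genes lower in both mutant libraries. The exact permutation p was 0.333 for each sum. Single members went against the sum of their role: Maml1 was lower in both mutant libraries and Lfng was higher. Maml2 and Maml3, with windows of 463 and 468 kb, weigh most in the sum of the complex genes.

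Gene by gene, the covered share of the window differed between genotypes without overlap for all 9 members, higher in mutant for 6 and lower for 3 (Maml1, Mfng and Rfng). Over 21887 protein-coding genes it was higher in both mutant libraries for 23.6% and lower for 29.6%. Among the 9259 genes with at least 12 regions, the fewest of any member, the shares were 26.7% and 34.2%. With the same shortest length and joining gap in all lists, 3 members were higher (Maml2, Adam10 and Fbxw7) and 3 lower (Maml1, Mfng and Rfng), with a background of 20.7% and 30.7%. With peaks of fold 4 or more alone, none was higher and Rfng and Fbxw7 were lower. With equal numbers of peaks per list, Rfng turned from lower to higher in mutant and Maml1 overlapped. The shares over all protein-coding genes were not computed at fold 4 or with equal numbers, so these counts have no background beside them.

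Maml2 went from 5.22% and 4.87% of its window in wild type to 6.10% and 6.09% in mutant. Fbxw7 had 5.71% and 4.69% against 6.86% and 6.08%. Rbpj had 5.58% and 6.21% against 6.67% and 6.42%, and Adam10 had 5.76% and 5.52% against 6.11% and 6.17%. These 4 windows lay close to the gene median of 5.32% (quartiles 1.64% to 9.28%). Maml3 had 9.72% and 9.42% against 10.7% and 9.83%. In the other direction, Mfng had 14.6% and 14.7% against 12.4% and 11.6%, Maml1 had 10.8% and 10.3% against 10.2% and 8.88%, and Rfng had 11.6% and 12.1% against 11.3% and 11.2%. In order of mean level, Lfng was highest, then Mfng and Rfng, whose libraries overlapped, then Maml1 and Maml3, which overlapped, and then Rbpj, Adam10, Fbxw7 and Maml2, which overlapped as well.

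**Figure D3:**
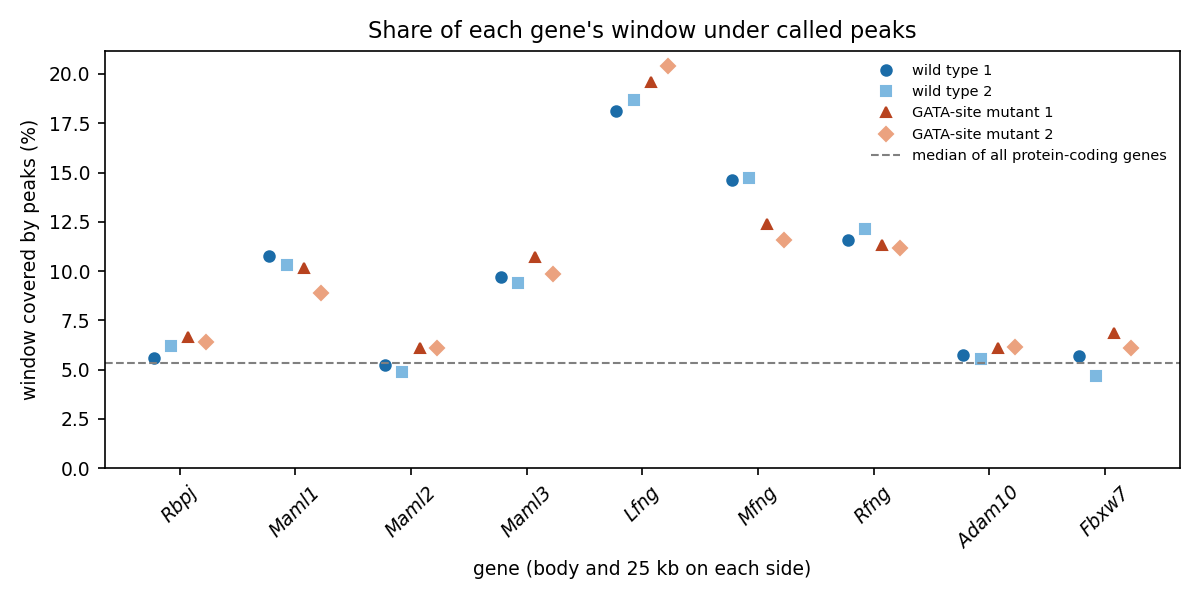
Share of each gene's window (gene body and 25 kb on each side) under called peaks, in percent, for the 4 libraries; the dashed line is the median of all protein-coding genes, 5.32%. The genotypes do not overlap for any of the 9 genes, with mutant above wild type for 6 and below for Maml1, Mfng and Rfng; with common list settings Rbpj, Maml3 and Lfng overlap.

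The added length lay in regions that every library had called. Measured over whole regions, not clipped at the window edges as in the totals above, the 195 shared regions held 124.0 and 121.5 kb in wild type and 141.2 and 135.6 kb in mutant. The other 120 regions held 12.9 and 11.1 kb against 7.88 and 6.09 kb. Of the shared regions, 94 were covered over a greater length in both mutant libraries and 31 over a smaller one, against 38.8% and 19.8% of the 102231 shared regions of the genome. The split was 14 to 2 at Fbxw7, 25 to 4 at Maml2, 29 to 6 at Maml3, 9 to 2 at Rbpj and 6 to 0 at Adam10, while Mfng had 2 to 6 and Maml1 2 to 5. In 10 of the 195, both mutant lists held as a single peak what both wild-type lists held as more than 1 (3.71% genome-wide), and the reverse occurred in 0 (0.0685% genome-wide). That the mutant lists join over wider gaps moves with this difference; its part in the added length was not tested beyond the common setting above.

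**Figure D4:**
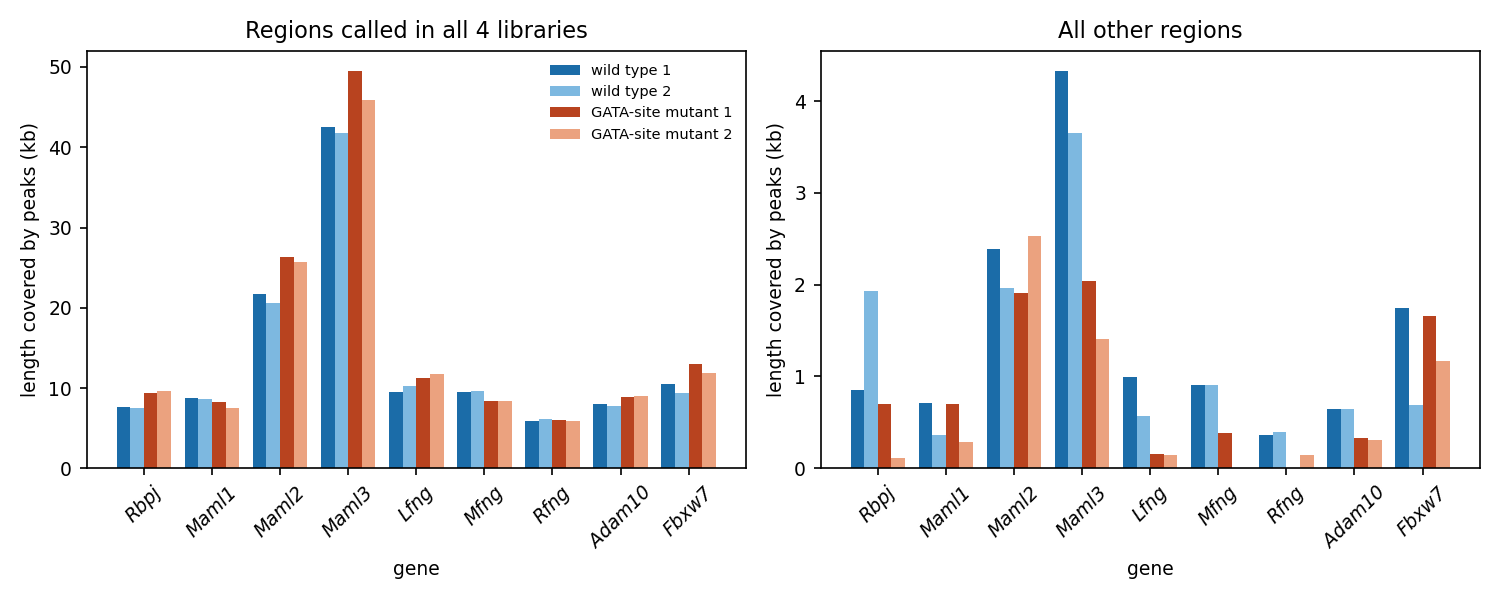
Length covered by peaks (kb) at each gene and library, in regions called in all 4 libraries (left) and in all other regions (right; the vertical scale differs). In shared regions the mutant bars are taller at Rbpj, Maml2, Maml3, Lfng, Adam10 and Fbxw7, and no bar of the other regions exceeds 4.33 kb.

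Shared regions made up 195 of 315, or 61.9% (exact 95% binomial interval 56.3% to 67.3%), against 56.7% of all regions. Their share was 62% for the complex genes, 68.2% for the fringe genes and 56% for Adam10 and Fbxw7. Regions present in both wild-type lists and absent from both mutant lists numbered 25 of 242, or 10.3% (interval 6.80% to 14.9%), against 15% of all. Regions present in both mutant lists and absent from both wild-type lists numbered 5 of 213, or 2.35% (interval 0.766% to 5.39%), against 1.75%. The intervals cover counting error only and treat regions as independent. Wild-type regions of this kind were 16 of 168 at the complex genes, 4 of 37 at the fringe genes and 5 of 37 at Adam10 and Fbxw7. Mutant ones were 4 of 148, 1 of 31 and 0 of 34. That 0 allows a share of up to 8.82%, taken as 3 counts, or up to 10.3% by the exact 95% interval.

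Regions called in one genotype alone were mostly short and weak. The 25 wild-type ones were 95 to 629 bp wide with a median of 160 bp, and the 5 mutant ones 127 to 300 bp, whereas shared regions had a median of 645 bp. Over the genome the medians were 176, 254 and 608 bp. The widest wild-type region here, of 629 bp, thus exceeded the shared median of the genome but not that of these windows. The highest fold in any list was 3.72 for wild-type regions and 2.77 for mutant ones, against 13.0 for shared regions. The highest of all was chr15:78789741-78789998, in the body of Card10 above Mfng, at 3.72 and 2.72 in the wild-type lists. At Adam10, chr9:70665382-70665645 had 3.04 and 2.82, and chr9:70801734-70802004, in the neighbouring lipase gene Lipc, had 2.44 and 3.21. At Fbxw7, chr3:84938119-84938252 had 3.08 and 2.42, and the other 2, chr3:84839537-84839688 and chr3:84896179-84896278, stayed at 2.33 or lower.

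Maml3 held 11 of the 25 wild-type regions, 10 inside the gene and 1 just beyond its end, and 2 of the 5 mutant ones. They were 11 of its 77 regions in both wild-type lists and 2 of its 62 in both mutant lists, against 15% and 1.75% of all regions. The widest wild-type region at Maml3 was chr3:51938740-51939368, of 629 bp, with folds of 2.70 and 2.45. The strongest was chr3:51684538-51684697, with 2.91 and 2.75. The mutant regions there were chr3:51755614-51755913, at 2.17 and 2.77, and chr3:51815152-51815334, at 2.01 and 2.21. Maml2 held 5 wild-type regions, of 58 in both wild-type lists, all inside the gene, of 125 to 197 bp, with folds up to 2.58. It held 2 mutant ones, of 56 in both mutant lists: chr9:13417329-13417455 at no more than 2.32 and chr9:13561664-13561950 at 1.94 and 2.09. Around Lfng, 3 wild-type regions, of 15 in both wild-type lists, had folds of up to 2.22. The mutant one, of 12 in both mutant lists, chr5:140632648-140632795 in Ttyh3, had 1.85 and 2.18. None of the 30 overlapped an annotated start. The nearest peak of the other genotype was 330 to 10065 bp from the wild-type regions (median 1069) and 806 to 2999 bp from the mutant ones.

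**Figure D5:**
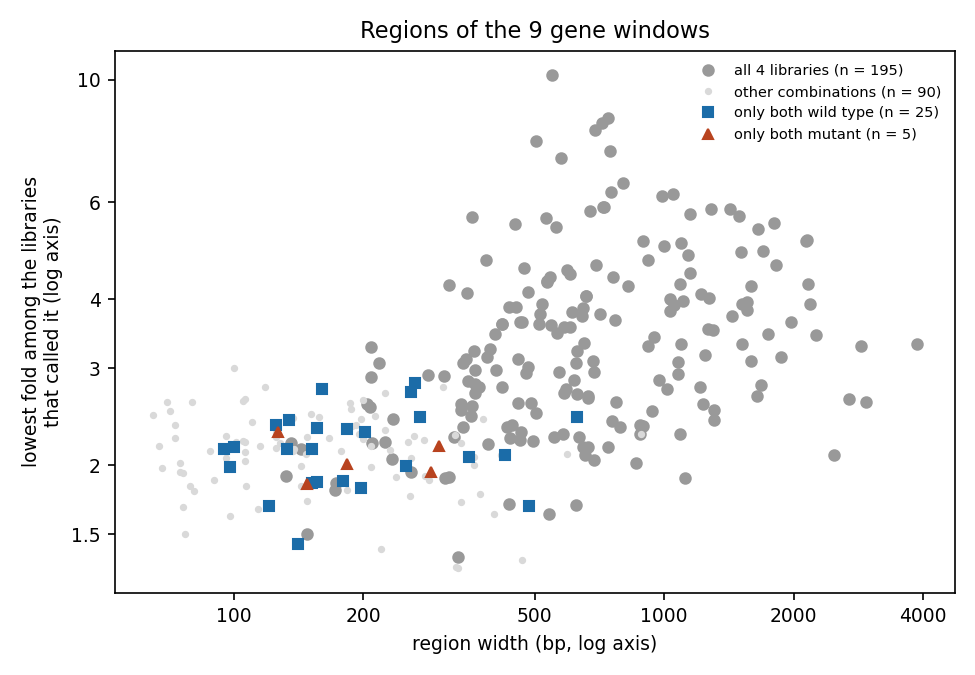
Width (bp, log axis) and lowest fold among the libraries that called it (log axis) for each of the 315 regions, by the libraries in which it was called. Squares and triangles, the 25 wild-type and 5 mutant regions, lie mostly among the short and weak ones, and all regions over 1000 bp wide or with a lowest fold over 4 were called in all 4 libraries.

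Most regions lay inside the genes: 232 of 315 (73.7%) were in a member's body away from its start, 40 between genes, 30 in another gene's body, 9 on a member's own start and 4 on the start of another gene. The last covered the starts of Mindy2 and Gm31872 near Adam10, Ltc4s near Maml1, Mgst2 near Maml3 and Dus1l near Rfng. All 4 regions were called in every library. The body class includes the peak over the end of Mfng and that over the annotated beginning of the Maml2 body. Exon and intron boundaries were not used here. Of regions left out by the window rule, the closest to an edge were chr5:140640939-140641118, 393 bp above the Lfng window with a highest fold of 2.77, chr5:140581480-140581914, 426 bp below it with 6.45, and chr5:53529858-53530335, 443 bp below the Rbpj window with 5.72. Just inside, chr5:53530915-53531010 lay 232 bp from the Rbpj edge with 2.07.

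The genes whose window coverage was most like that of 3 members over the 4 libraries were found by Euclidean distance in percentage points. For Rbpj they were Ctse, Nim1k and Ska2, at 0.298 to 0.342, for Lfng Aldh3b1, Ddit4 and Dusp2, at 0.635 to 0.796, and for Fbxw7 H2al1m, Rnf34 and Art2b, at 0.363 to 0.400. This likeness covers the level and the order of 4 libraries only.

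For 41 other genes of the pathway (receptors, ligands, processing enzymes, nuclear partners, turnover factors and targets), 27 of 32 with an annotated start were covered there in all 4 libraries. A peak within 1 kb of a start or gene end was found for 40, 40, 41 and 40 of the 41. Of their 784 regions, 57.9% were shared by all libraries. Regions of wild type alone were 82 of 592 (13.9%) and of mutant alone 6 of 470 (1.28%), close to the background shares of 15% and 1.75%. Start peaks were wider in both mutant libraries for 14 of the 27 and narrower for 4, against 55% and 10.8% of all genes. Window coverage was higher for 10 of the 41 and lower for 13, against 23.6% and 29.6%, so these counts were near the background. Among the 11 nuclear partners, which include the acetyltransferase genes Ep300 and Crebbp and the corepressor genes Ncor1 and Spen, 7 had a start covered in every library. All 7 of these peaks were wider in both mutant libraries, and window coverage was higher for 3 and lower for 1 of the 11. Wider and narrower start peaks numbered 5 and 1 of 7 for processing enzymes and 1 and 2 of 5 for turnover factors. They numbered 0 and 1 of 3 for receptors, 0 and 0 of 2 for ligands and 1 and 0 of 3 for targets. Window coverage was higher and lower for 0 and 3 of 5 ligands, 0 and 2 of 4 receptors and 3 and 3 of 9 processing enzymes. It was higher for 2 and lower for 2 of the 6 turnover factors, and likewise of the 6 targets.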

How the data were processed

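ATAC-seq peak lists of 4 DN3 libraries were used. The submitters' processing notes list build mm10, MACS2 2.1.1, cutadapt 1.16, SAMtools 1.7 and Bowtie2 2.3.3.1, with no role or order. Settings, read filters, any shift for transposase insertion and depth were not given in the sources used here. Each library had its own list, so peaks were called per library. For each peak the authors deposited a score (10 times its −log10 q), the fold enrichment as a ratio, and the −log10 p and −log10 q; these are the authors' values, scaled within each list. Fold was averaged over the lists to rank genes, its lowest or highest value ranked regions, and a minimum fold of 4 in every list was an alternative.

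Peaks on chromosomes outside the assembled nuclear set (0.112% to 0.131%) were left out. The 4 lists were merged where peaks shared at least 1 bp, and a region counted as called in a library with at least 1 bp of overlap. Genes came from RefSeq (GRCm38.p6). A main start is the annotated start covered in most libraries and, among those, of the highest mean fold. Genotypes were compared by exact two-sided permutation over libraries, and counts were set beside the same counts over all genes or regions. Scripts ran in Python 3.11.15 with numpy 2.4.6, pandas 2.3.3, scipy 1.17.1 and matplotlib 3.10.9, and were tested on simulated lists. No library was dropped or imputed.

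The members, lists and settings were chosen with earlier results of these data known. Named regions were, per gene, that at its start, the strongest other region called in every list, the widest, and all those called in one genotype alone; a gene-body region was added where the strongest lay outside the gene. Alternatives varied the fold or q minimum, list size, joining gap, window, overlap and libraries.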

Additional observations from a re-analysis of the deposited data

How the results depend on the processing

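The share of regions called in wild type alone, 10.3%, became 21.2% at a minimum fold of 4, 3.92% at a minimum −log10 q of 5 and 2.72% with equal numbers of peaks per list, against 19.7%, 10.3% and 4.92% of all regions. The share in mutant alone, 2.35%, became 13.6% with equal numbers and 8.85% when peaks had to cover 50% of a region, against 6.99% and 7.46% of all. The share in all 4 libraries, 61.9%, became 48.3% at fold 4, 68.6% at the q minimum and 47.9% at 50% cover, against 54.0%, 65.0% and 43.1% of all regions; at fold 4 the members were thus below all regions, having been above. Leaving out 1 library moved the wild-type share to between 14.8% and 16.0% and the mutant share to between 2.99% and 6.57%, while over all regions they were 19.3% to 25.4% and 2.56% to 4.11%; fewer lists must then agree. The highest wild-type share came without wild type 1 and the highest mutant share also without wild type 1; the lowest values of both came without a mutant library.

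The covered length difference (mutant minus wild type, 10.6 kb) turned to -7.46 kb at fold 4, and the cause was not tested. It stayed positive in the other 12 alternatives, but among these the replicate block, described below, leaves the difference unchanged by construction. The difference was 25.3 kb with equal numbers of peaks and 6.85 to 14.3 kb when a library was left out. With a common shortest length of 87 bp and joining gap of 348 bp it was 8.23 kb. The difference in the number of peaks (-56) turned to 25 with equal list sizes, which removes the weakest peaks of the longer wild-type lists by construction. The count of members with higher coverage in mutant, 6, became 0 at fold 4 and 3 with the common gap. It was 7 with equal numbers of peaks, 5 with 10 kb flanks and with gene bodies alone, and 4 with 50 kb flanks. The count with lower coverage, 3, became 1 with the q minimum, with equal numbers of peaks (where Rfng turned to higher), with 10 kb flanks and with gene bodies alone, and 2 at fold 4 and with 50 kb flanks. These alternatives were added after the data were seen. Among them, the share of all genes was computed for the common gap alone.

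Whether replicate numbers pair the libraries is not known. The correlation of deviations in covered percent was -0.08, which cannot settle it with 2 libraries per genotype. Over all windows, replicate 1 was above replicate 2 in both genotypes, in covered length and in number of peaks. A replicate block, which flips signs within replicate numbers, changes only the test. For the covered length difference of 10.6 kb and that of -56 peaks its exact p was 0.5 each, the smallest possible. The count of 5 start peaks wider in mutant cannot change under it.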
